A study of Mus musculus with 32 samples.

Results

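Meiotic recombination starts with DNA double-strand breaks that the cell makes on purpose, and the genes followed here encode the proteins that make the breaks, place them on the chromosome axis and limit them. The set was fixed by 9 gene symbols and not by any measured value: Spo11, Mei1, Mei4, Rec114, Ccdc36 (also called Iho1), Ankrd31, Hormad1, Hormad2 and Trip13. Each symbol was matched to a gene identifier of the GENCODE M21 annotation, and 8 of the 9 had values among the 20368 genes of the juvenile gene table. Ankrd31 (ENSMUSG00000109561) had no value under that identifier and was not analysed here.

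Germ cells were taken from C57BL/6J male mice at 8 dpp (days post partum, 3 mice) and at 10, 12, 14, 16 and 18 dpp (5 mice at each age), both testes of a mouse making 1 sample, so that the first wave of spermatogenesis could be followed as it entered meiosis. A further 4 samples came from adults of 9 weeks, each pooled from the testes of several mice and enriched for pachytene and diplotene spermatocytes by sedimentation at unit gravity (STA-PUT). All groups were of this inbred strain, and the labels name no treatment, transgene or mutation. Messenger RNA was selected by its poly-A tail, sequenced, and expressed by the authors as TPM, a share of all transcripts of a sample that is already divided by transcript length, so that levels of different genes can be compared.

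SPO11 is the protein that cuts both DNA strands, in the manner of a topoisomerase, and it works with the TOPOVIBL subunit. MEI1, MEI4, REC114 and IHO1 are cofactors without which breaks do not form, and MEI4, REC114 and IHO1 gather as foci on the axes of unpaired chromosomes in leptotene and zygotene. HORMAD1 and HORMAD2 are HORMA-domain proteins of the same axes, and TRIP13 is an AAA+ ATPase that removes them once homologous chromosomes have synapsed.

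The samples were mixtures by their marker transcripts. The authors counted most stained cells of each juvenile sample as germ cells, and TPM sums of unlike marker lists do not give shares of cells. The 4 germ cell markers (Ddx4, Dazl, Tex101 and Sycp3) summed to between 669 and 911 TPM at 8 dpp, between 1909 and 2304 TPM at 18 dpp and between 1175 and 1362 TPM in adult samples. The 8 Sertoli cell markers summed to between 7200 and 8076 TPM at 8 dpp, between 3544 and 4618 TPM at 18 dpp and between 343 and 498 TPM in adult samples, and none of the 8 was at 0 in every mouse of a juvenile age. Peritubular markers (5 genes) had a median sum of 1092 TPM at 8 dpp, 586 TPM at 18 dpp and 7.37 TPM in adult samples, and spermatogonium markers (6 genes) one of 1128, 481 and 32.0 TPM. Spermatid markers (6 genes) summed to at most 16.98 TPM in any juvenile mouse and to between 872 and 1189 TPM in adult samples. The sums of Leydig cell (6 genes), macrophage (5), red blood cell (5) and endothelial (4) markers had medians of 191, 33.9, 466 and 54.1 TPM at 8 dpp, of 186, 60.3, 313 and 37.9 TPM at 18 dpp, and of 230, 3.67, 6.56 and 2.62 TPM in adult samples. In such bulk samples, fewer cells of a type and less RNA per cell cannot be told apart, and the part of these other cells in the results below was not tested. The depth behind a value is unknown, since TPM holds no counts, and the spread between mice is the error used throughout.

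Spo11 is read as several transcripts, and the sequence in which its coding forms differ is shown first because the isoform result turns on it. The gene lies on chromosome 2 at chr2:172977700-172993576 (GRCm38, plus strand). Exon 2 of the transcript Spo11-201, at chr2:172981979-172982092, is 114 bases long, wholly coding and a multiple of 3 bases (38 codons). Spo11-201 includes this exon (the form known as beta), and Spo11-202 and Spo11-203 skip it (the form known as alpha). Below, the first line gives exon 2 in capitals, the next lines its junctions with exons 1 and 3, with 15 bases on each side (capitals mark bases of exon 2), and then the junction of exons 1 and 3 in the skipping form, which has no capitals. The last line gives the 39 bases (13 codons) at chr2:172985358-172985396 that only Spo11-203 carries at the start of its exon 4, in capitals.
exon 2: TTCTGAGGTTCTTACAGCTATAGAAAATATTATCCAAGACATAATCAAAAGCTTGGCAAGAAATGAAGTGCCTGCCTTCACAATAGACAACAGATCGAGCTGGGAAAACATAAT
exon 1 to exon 2 junction: ccgcgtggcctctagTTCTGAGGTTCTTAC
exon 2 to exon 3 junction: CTGGGAAAACATAATgtttgatgattctgt
exon 1 to exon 3 junction: ccgcgtggcctctaggtttgatgattctgt
extra bases of Spo11-203: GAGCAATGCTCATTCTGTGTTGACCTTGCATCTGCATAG

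**Figure D1:**
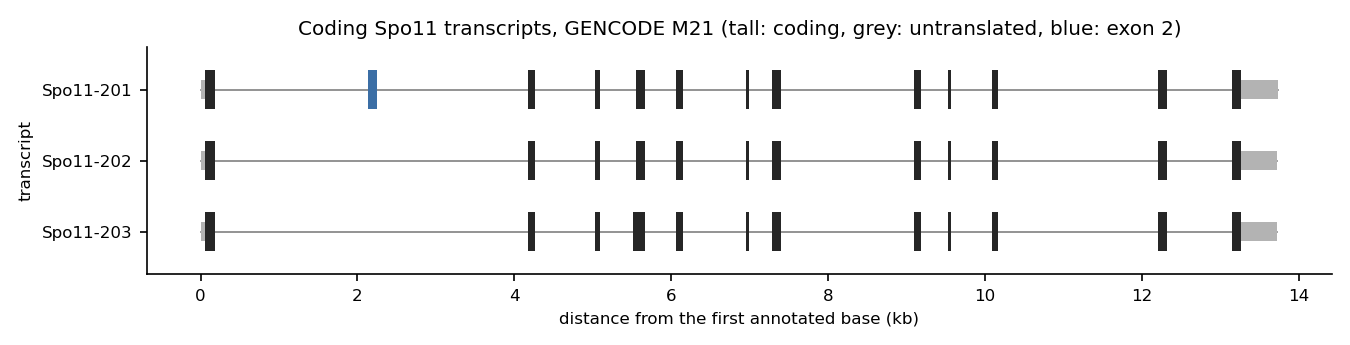
Exons of the 3 coding Spo11 transcripts drawn to scale, with the distance from the first annotated base in kilobases on the x axis and one row per transcript. Exon 2 (114 bases, blue) is present in Spo11-201 only, and exon 4 of Spo11-203 is 39 bases longer than exon 4 of Spo11-202.

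Spo11 was among the lowest of the set at the earliest ages and rose at 3 of the 5 steps between neighbouring ages. The mice at 8 dpp had 3.37, 5.26 and 5.31 TPM. At 10 dpp the 5 mice had 2.71, 3.92, 4.02, 4.22 and 5.4 TPM, and at 12 dpp 11.04, 11.8, 12.0, 12.7 and 15.2 TPM. Every mouse at 12 dpp thus lay above every mouse at 10 dpp. The change was 1.44 ± 0.15 on the log2(TPM + 1) scale (SE), or 2.71-fold in TPM + 1 (limma, adjusted p = 1.1e-07). Mean levels were 4.05 TPM at 10 dpp and 12.5 TPM at 12 dpp. Every fold change between ages below is likewise one of TPM + 1. At 14 dpp the mice lay between 12.97 and 18.4 TPM, a range that overlapped 12 dpp, and the difference of 0.32 did not pass (adjusted p = 0.52, limma). At 16 dpp the mice had 19.8, 23.1, 24.7, 27.96 and 34.7 TPM, and at 18 dpp 39.4, 44.1, 52.0, 57.5 and 64.4 TPM. Neither range overlapped that of the age before it, and Spo11 rose by 0.67 ± 0.15 from 14 to 16 dpp (adjusted p = 0.0020) and by 0.96 ± 0.15 from 16 to 18 dpp (adjusted p = 1.3e-05, limma for both). Between 8 and 18 dpp its level went from 4.65 ± 1.11 (SD, n = 3) to 51.5 ± 10.0 TPM (SD, n = 5). This was a change of 3.21 ± 0.18 on the log2(TPM + 1) scale, or 9.28-fold in TPM + 1.

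**Figure D2:**
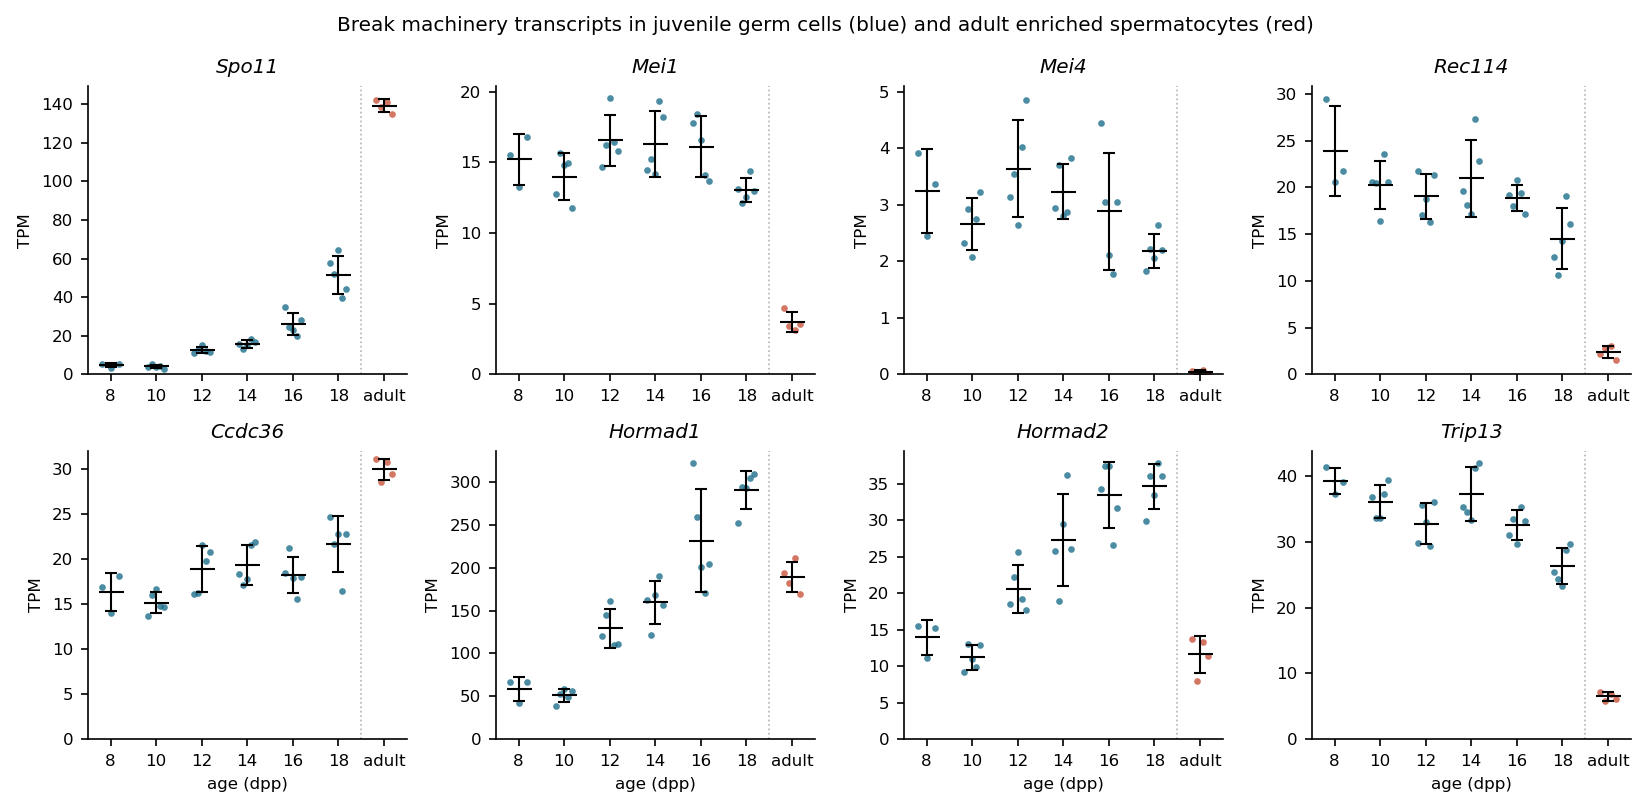
TPM of the 8 measured genes (y axis, one panel per gene, each axis starting at 0) in 28 juvenile mice by age in dpp (blue) and in 4 adult samples (red, made in a separate table), with 1 point per sample and bars for mean ± SD. Spo11 and Hormad1 climb from 10 to 18 dpp, the means of Trip13, Rec114 and Mei1 are lowest among juvenile ages at 18 dpp, and adult samples are above the 18 dpp range only for Spo11 and Ccdc36.

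The steps of Spo11 were called for Spo11-201 at the first rise and for Spo11-202 at the later ones. From 10 to 12 dpp the including form went from 0.71, 0.79, 1.95, 1.98 and 2.53 TPM to 4.07, 7.40, 7.96, 8.53 and 8.57 TPM. These groups did not overlap, and the rise of Spo11-201 (1.70 ± 0.23 on the log2 scale) passed the test over all transcripts (adjusted p = 2.5e-05, limma). The skipping forms together had 0, 1.27, 1.42, 2.18 and 2.32 TPM at 10 dpp and 1.44, 1.97, 3.88, 4.16 and 5.32 TPM at 12 dpp, so the groups overlapped, and Spo11-202 did not pass (0.86 ± 0.42, adjusted p = 0.30, limma). From 14 to 16 dpp it was Spo11-202 that rose, by 1.56 ± 0.42 (adjusted p = 0.020, limma), while Spo11-201 differed by 0.13 ± 0.23 (adjusted p = 0.85, limma). From 16 to 18 dpp Spo11-202 rose again, by 1.38 ± 0.42 (adjusted p = 0.019, limma), and Spo11-201 differed by 0.47 ± 0.23 (adjusted p = 0.19, limma). Whether the 2 transcripts differed from each other at a single step was not tested, and their share was compared from 12 dpp on.

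Of the coding Spo11 TPM, the skipping form took a larger part at 18 dpp than at 12 dpp. At 12 dpp it was 14.4%, 19.8%, 32.7%, 34.4% and 56.7% of the sum of skipping and including coding transcripts. At 18 dpp it was 62.5%, 66.4%, 66.5%, 69.2% and 69.5%. No mouse at 18 dpp was as low as any at 12 dpp, and the mean went from 31.6% ± 16.4 to 66.8% ± 2.8 (SD, n = 5 each), a difference of 35.2 percentage points (two-sided exact permutation test, p = 0.0079, the smallest that 252 arrangements allow, 0.016 adjusted over 2 comparisons). At 16 dpp the mice had 43.0%, 47.4%, 51.1%, 54.3% and 66.4%, which overlapped 12 dpp, and the difference of 20.8 points gave p = 0.048 by the same exact test (0.048 adjusted). That call did not hold for 9 of the 10 ways of leaving out 1 mouse (differences of 16.5 to 27.1 points over all 10, exact p from 0.016 to 0.095), nor as a percentage of all Spo11 transcripts (16.2 points, exact p = 0.056). The smallest p that 4 against 5 mice allow is 0.016. At 14 dpp the share was between 12.0% and 44.6%. At 8 and 10 dpp, where the 2 forms together were under 4 TPM, it ran from 0% to 49.9% and from 0% to 75.4%, so the spread between mice at these ages was too wide to order them.

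**Figure D3:**
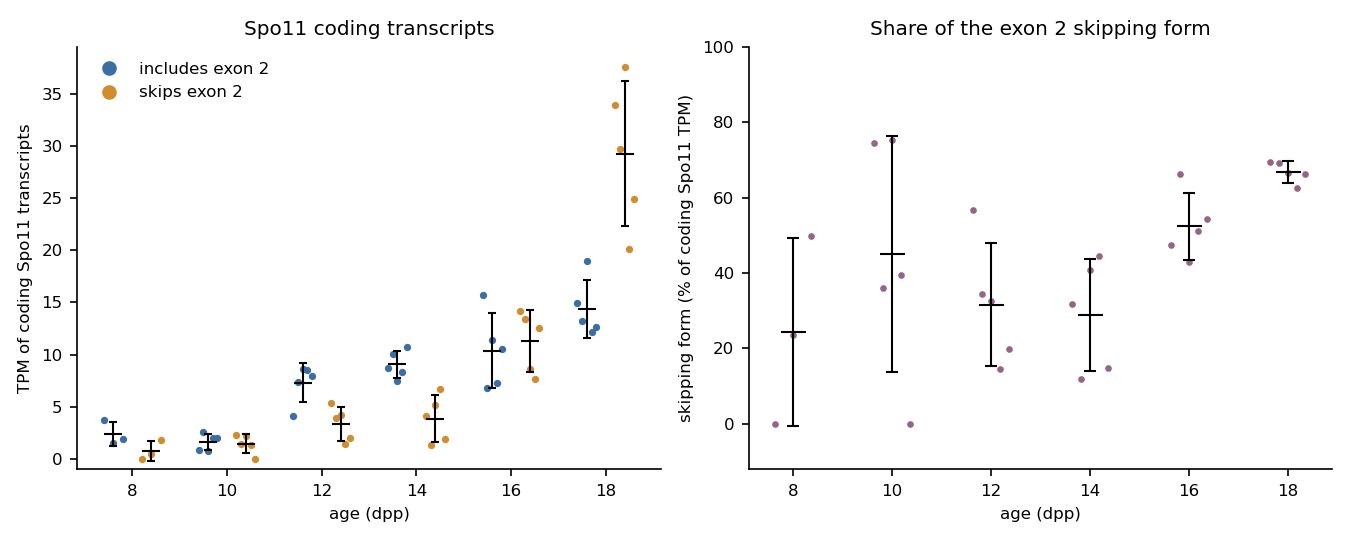
Left, TPM of coding Spo11 transcripts that include exon 2 (blue) or skip it (orange) by age in dpp. Right, the skipping form as a percentage of both. Each point is a mouse and bars give mean ± SD. The including form is higher at 12 and 14 dpp (means of 7.31 against 3.35 TPM and 9.05 against 3.84 TPM), and at 18 dpp all 5 mice have more of the skipping form (mean of 29.3 against 14.4 TPM).

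In the wider test of transcript usage, each transcript was taken as a percentage of its gene over 46012 transcripts. The 2 forms moved in the same directions there. Only the skipping transcript Spo11-202 was called from 8 to 18 dpp, and neither form was called from 12 to 18 dpp. From 8 to 18 dpp 2 of the 12 member transcripts tested were called, beside 7.40% of all transcripts: Spo11-202 gained 35.7 ± 10.5 points (adjusted p = 0.037) and Spo11-204 lost 14.2 ± 3.3 points (adjusted p = 0.0073, limma for both). The change of Spo11-201, -22.3 ± 10.1 points, was not called (adjusted p = 0.23, limma). At 8 dpp the skipping form was between 0 and 1.84 TPM in 3 mice, and its share there varied widely between mice. From 12 to 18 dpp none of the 12 was called at an adjusted p under 0.05 by limma, beside 4.15% of all transcripts, although 3 had an unadjusted p under 0.05. These were Spo11-201 (lower by 30.0 ± 8.75 points, adjusted p = 0.054), Spo11-202 (higher by 25.0 ± 9.08 points, adjusted p = 0.16) and Spo11-203 (higher by 4.52 ± 1.76 points, adjusted p = 0.20, limma for all). Spo11-203 was listed at 0 in all mice up to 12 dpp, had 1.36 and 1.38 TPM in 2 mice at 14 dpp, and was between 0.99 and 2.47 TPM in all 5 mice at 16 dpp. At 18 dpp it was above 0 in 4 of 5 mice, up to 5.59 TPM. Spo11-204 retains an intron and codes for no protein, and its mean went from 1.31 TPM at 8 dpp to 7.81 TPM at 18 dpp and made up 29.7% and 15.5% of the gene. Its level rose from 16 to 18 dpp (0.71 ± 0.18, adjusted p = 0.0048, limma). Coding transcripts alone put Spo11 at 3.14 TPM at 8 dpp and 43.7 TPM at 18 dpp.

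Hormad1 (chr3:95559677-95587671, plus strand), the axis protein gene, was the most abundant of the set at every age and followed a course like that of Spo11 on a higher level. At 10 dpp the mice had 39.0, 48.8, 52.9, 55.9 and 58.2 TPM, and at 12 dpp 109.95, 111, 120.3, 145 and 161 TPM. The groups were far apart, and Hormad1 rose by 1.32 ± 0.15 on the log2 scale, or 2.50-fold (adjusted p = 4.7e-07, limma). At 14 dpp it was 159.6 ± 25.1 TPM (SD, n = 5), and the difference from 12 dpp did not pass (0.30 ± 0.15, adjusted p = 0.54, limma). At 16 dpp the values were 171, 201, 204, 259 and 323 TPM. They overlapped 14 dpp (121, 156, 162, 168 and 190.4 TPM), and the rise of 0.51 ± 0.15 was called (adjusted p = 0.016, limma) but not without mouse 2 of 14 dpp, the lowest of its age (0.42, adjusted p = 0.062), or mouse 1 of 16 dpp, the highest of its age (0.38, adjusted p = 0.076, limma for both). At 18 dpp the 5 mice had 253, 293, 295, 305 and 309 TPM. The change from 16 to 18 dpp (0.36 ± 0.15) had an adjusted p of 0.0496, next to the threshold, and lost its call when any of 19 of the 28 mice was left out (0.26 to 0.36, adjusted p up to 0.17, limma). Hormad1 had 58.7 ± 14.4 TPM at 8 dpp (SD over 3 mice) and 291 ± 22.5 TPM at 18 dpp (SD over 5 mice), which is 4.99-fold (2.32 ± 0.18 on the log2 scale, adjusted p = 8.6e-12, limma).

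The coding transcripts Hormad1-201 and Hormad1-202 held over 99% of Hormad1 at every age. They rose together from 10 to 12 dpp, by 1.30 ± 0.17 and 1.33 ± 0.17 on the log2 scale (adjusted p = 9.6e-06 and 8.6e-06, limma). From 14 to 16 dpp Hormad1-202 rose (0.71 ± 0.17, adjusted p = 0.0093) and Hormad1-201 did not pass (0.47 ± 0.17, adjusted p = 0.11, limma). Hormad1-202 made up 16.8% of the gene at 8 dpp and 22.8% at 18 dpp, and this difference of 5.97 ± 2.16 points was not called (adjusted p = 0.11, limma). Hormad1-203 and Hormad1-204 were listed at 0 in every mouse.

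Hormad2 (chr11:4345814-4441105, minus strand), the related axis protein gene, had between 9.16 and 13.1 TPM at 10 dpp and 17.6, 18.5, 19.2, 22.15 and 25.6 TPM at 12 dpp. The 12 dpp mice were all above the 10 dpp mice, a rise of 0.83 ± 0.14 or 1.77-fold (adjusted p = 6.8e-05, limma). Later steps were smaller and none passed: 0.37 ± 0.14 to 14 dpp (adjusted p = 0.33), 0.30 ± 0.14 to 16 dpp (adjusted p = 0.11) and 0.06 ± 0.14 to 18 dpp (adjusted p = 0.76, limma for all). The step from 14 to 16 dpp was called without mouse 6 of 14 dpp (0.41, adjusted p = 0.030) or mouse 4 of 16 dpp (0.38, adjusted p = 0.049, limma for both). It was also called with protein-coding transcripts only (0.39, adjusted p = 0.033) and in mice 1 to 3 only (0.56, adjusted p = 0.025, limma for both). The mean over 5 mice was 33.4 ± 4.55 TPM at 16 dpp and, again over 5 mice, 34.6 ± 3.05 TPM at 18 dpp (± SD), and the 95% interval of that last difference, from -0.23 to 0.34, covers both a small fall and a small rise. Hormad2 was spread over more transcripts than the other genes, with Hormad2-202 and Hormad2-203 the main coding ones at means of 12.1 and 8.59 TPM at 18 dpp. Hormad2-201, annotated as a target of nonsense-mediated decay, made up 8.05% of the gene at 8 dpp and 20.6% at 18 dpp, a difference that was not called (12.5 ± 5.85 points, adjusted p = 0.25, limma). With only the transcripts annotated as protein-coding, which leaves out Hormad2-201, Hormad2 had a mean of 25.1 TPM at 18 dpp in place of 34.6 TPM.

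Trip13 (chr13:73911347-73937784, minus strand), whose product clears HORMADs from synapsed axes, moved the other way. It had 37.35, 39.0 and 41.4 TPM at 8 dpp and stayed between 29.3 and 42.0 TPM in all 20 mice from 10 to 16 dpp, with no call at any of the steps between. At 16 dpp the mice had 29.7, 31.1, 33.1, 33.5 and 35.4 TPM, and at 18 dpp 23.3, 24.4, 25.4, 28.8 and 29.6 TPM. The 18 dpp mice were all lower than the 16 dpp mice, the nearest being 29.61 TPM at 18 dpp and 29.67 TPM at 16 dpp, and Trip13 fell by 0.30 ± 0.08 on the log2 scale (adjusted p = 0.0026, limma). Between 8 and 18 dpp it fell by 0.56 ± 0.09 (adjusted p = 5.2e-06, limma) and the groups did not overlap. Beside these levels, Hormad1 had a mean of 58.7 TPM and Trip13 one of 39.25 TPM at 8 dpp, and at 18 dpp the 2 were at 291 and 26.3 TPM.

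The cofactor genes had fewer calls. Rec114 (chr9:58652850-58743964, minus strand) had 20.5, 21.8 and 29.5 TPM at 8 dpp and no call at any step up to 16 dpp, where it was 18.9 ± 1.4 TPM (SD, n = 5). At 18 dpp it had 10.6, 12.6, 14.3, 16.1 and 19.0 TPM, overlapping 16 dpp (17.2 to 20.8 TPM) in 1 mouse, and fell by 0.38 ± 0.13 (adjusted p = 0.019, limma). That call was lost without mouse 1 (fall of 0.34, adjusted p = 0.053) or mouse 2 of 18 dpp (fall of 0.28, adjusted p = 0.081, limma for both). From 8 to 18 dpp Rec114 fell by 0.69 ± 0.16 and the groups did not overlap (adjusted p = 0.00030, limma). Rec114 shares 338 of the 883 exon bases of its expressed transcript with Nptn on the opposite strand, and the strand protocol of the libraries is not given in the sources used here. Nptn, at 151 TPM at 8 dpp and 99.3 TPM at 18 dpp, fell over the same interval by 0.61 ± 0.08 and from 16 to 18 dpp by 0.37 ± 0.07 (adjusted p = 9.4e-08 and 6.5e-05, limma), and how its reads bear on Rec114 was not tested.

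Mei1 (chr15:82069996-82126814, plus strand) lay between 11.8 and 19.6 TPM in all juvenile mice, with a mean of 15.2 ± 1.8 TPM over the 3 mice of 8 dpp and of 16.1 ± 2.1 TPM over the 5 mice of 16 dpp (± SD). At 18 dpp it was 12.1, 12.5, 12.96, 13.1 and 14.4 TPM. It fell by 0.28 ± 0.10 from 16 dpp (adjusted p = 0.023, limma), with overlapping ranges, and the call was lost without mouse 1 or 2 of 16 dpp (falls of 0.24 and 0.23, adjusted p = 0.060 and 0.073) or mouse 2 of 18 dpp (fall of 0.26, adjusted p = 0.055, limma for all). From 8 to 18 dpp its change of -0.20 did not pass (95% interval -0.45 to 0.04).

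Mei4 (chr9:81863670-82206007, plus strand) was the lowest gene of the set by mean at every age, between 1.77 and 4.86 TPM in all juvenile mice, and the only measured member not called for any difference among the 6 ages (F test, adjusted p = 0.058, limma). Its mean was 3.25 ± 0.74 TPM over the 3 mice of 8 dpp, 3.64 ± 0.85 TPM over the 5 of 12 dpp and 2.19 ± 0.30 TPM over the 5 of 18 dpp (± SD). The change from 8 to 18 dpp was -0.40 with a 95% interval of -0.79 to -0.02 and an adjusted p of 0.058 (limma), so these data do not settle it. It passed without mouse 2 of 8 dpp (-0.55, adjusted p = 0.025), mouse 1 or 4 of 16 dpp (-0.40, adjusted p = 0.038 and 0.044) or mouse 4 of 18 dpp (-0.45, adjusted p = 0.042, limma for all). From 14 to 18 dpp Mei4 was called lower (-0.41 ± 0.16, adjusted p = 0.028, limma), beside 68.4% of all genes called in either direction. This change was computed with the authors' TPM scaling only.

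Ccdc36 (chr9:108403611-108428484, minus strand), which encodes the HORMAD1 partner IHO1, had 13.7, 14.6, 14.8, 16.0 and 16.6 TPM at 10 dpp and 16.15, 16.21, 19.7, 20.7 and 21.5 TPM at 12 dpp. The ranges overlapped, and the rise of 0.29 ± 0.11 was called at the edge of the threshold (adjusted p = 0.049, limma). It lost its call when any of 17 of the 28 mice was left out (0.24 to 0.31, adjusted p up to 0.13, limma). Between 8 and 18 dpp it rose by 0.38 ± 0.12, from 16.3 ± 2.1 (SD, n = 3) to 21.7 ± 3.1 TPM (SD, n = 5, adjusted p = 0.0072, limma), but not without mouse 2 of 8 dpp (0.28, adjusted p = 0.074, limma). The 18 dpp values were 16.4, 21.6, 22.8, 22.8 and 24.7 TPM, and without the lowest of them, mouse 4, the difference from 16 dpp was also called (0.32, adjusted p = 0.00804, limma), as it was without mouse 2 of 16 dpp (0.29, adjusted p = 0.033, limma). 1700102P08Rik overlaps the locus on the opposite strand and shares no exon base with Ccdc36 (2.34 TPM at 8 dpp, 226 TPM at 18 dpp).

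Seen step by step, members were called in 3 of the 5 intervals, which were also the 3 with the most calls over all genes. No member was called from 8 to 10 dpp, where limma called 1.20% of all 20368 genes and no member had even an unadjusted p under 0.05. From 10 to 12 dpp 4 of 8 rose (Spo11, Hormad1, Hormad2 and Ccdc36) and none fell, beside 21.4% of all genes called in either direction. Of these, the call of Ccdc36 was at the edge of the threshold and was lost under both other scalings described below. From 12 to 14 dpp none was called, beside 0.172% of all genes, and 3 had an unadjusted p under 0.05 (Spo11, Hormad2 and Trip13, all higher at 14 dpp). From 14 to 16 dpp 2 of 8 rose (Spo11 and Hormad1), beside 24.0% of all genes called in either direction, which is about the same share. From 16 to 18 dpp Spo11 and Hormad1 rose and Mei1, Rec114 and Trip13 fell, 5 of 8, beside 54.0% of all genes, so most genes of the table were called at this step too. Across the whole span from 8 to 18 dpp 4 rose and 2 fell, 6 of 8 beside 68.2%, and 7 of 8 differed among ages in the F test beside 77.6%. Neighbouring steps share the mice of the age between them.

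**Figure D4:**
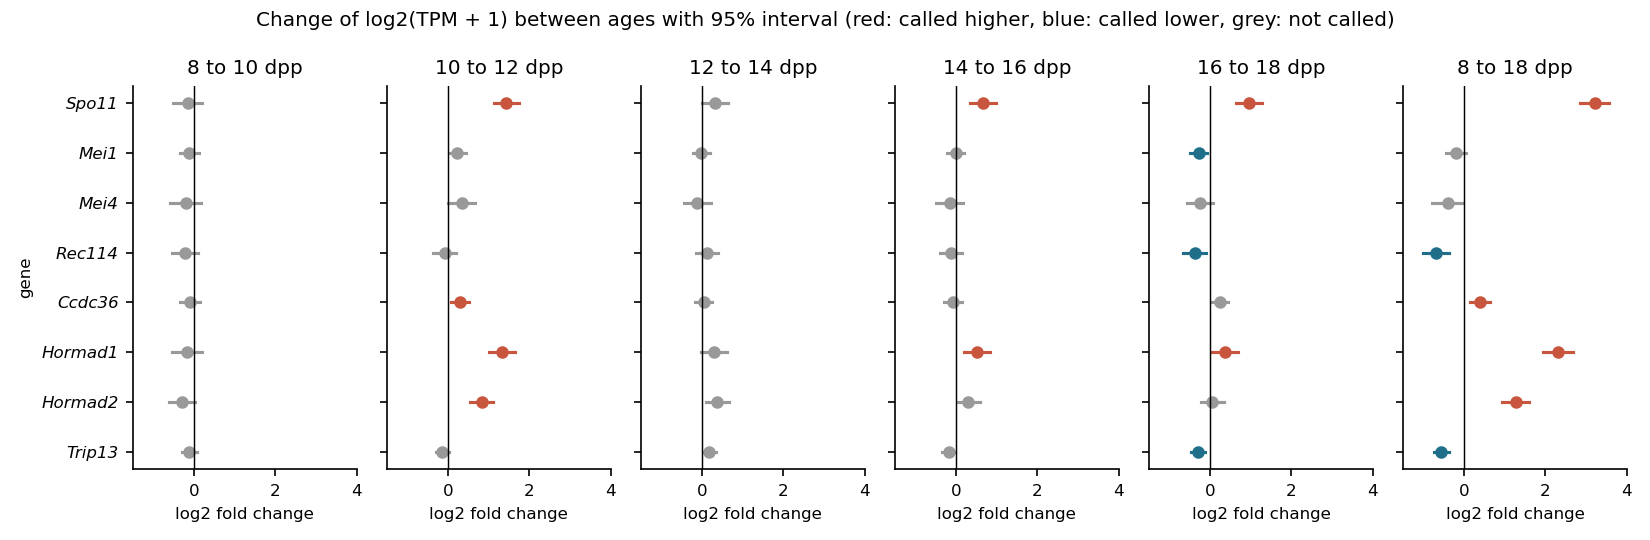
Change of log2(TPM + 1) of the 8 measured genes (rows) at each step between neighbouring ages and from 8 to 18 dpp (panels), as the limma estimate with its 95% interval on the x axis. Red and blue mark genes called higher or lower at an adjusted p under 0.05 and grey marks the rest. From 10 to 12 dpp Spo11 (1.44), Hormad1 (1.32), Hormad2 (0.83) and Ccdc36 (0.29) are red, and from 16 to 18 dpp Mei1, Rec114 and Trip13 are blue.

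The calls from 16 to 18 dpp depended on how libraries were scaled. Over all genes the median change at this step was -0.11 on the log2 scale. With median-of-ratios factors in place of the authors' TPM scaling, which set that median at 0.03, the changes were -0.12 for Mei1 (adjusted p = 0.29), -0.22 for Rec114 (adjusted p = 0.14) and -0.14 for Trip13 (adjusted p = 0.10), none of them called by limma. Ccdc36 was then called higher (0.39, adjusted p = 0.0033, limma), so that 3 members rose and none fell in place of 2 and 3. With quantile normalization the falls of Mei1 (-0.30, adjusted p = 0.0072), Rec114 (-0.40, adjusted p = 0.013) and Trip13 (-0.31, adjusted p = 0.0013) were called by limma, and the change of Hormad1 was not (0.25, adjusted p = 0.18), so that 1 member rose and 3 fell. The falls of Rec114 and Trip13 from 8 to 18 dpp and the rises of Spo11 at the 3 steps were called under every scaling tried. Ccdc36 was not called from 10 to 12 dpp with median-of-ratios factors (0.27, adjusted p = 0.068) or quantile normalization (0.27, adjusted p = 0.055, limma for both). Between 16 and 18 dpp the median sum of the spermatogonium markers went from 766 to 481 TPM, that of the Sertoli markers from 6108 to 3706 TPM and that of the germ cell markers from 1846 to 2168 TPM.

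Transcripts were also tested one by one. Of the 17 member transcripts that reached 1 TPM in some mouse, 3 were called from 10 to 12 dpp (Spo11-201, Hormad1-201 and Hormad1-202), beside 5.61% of 57305 transcripts. From 14 to 16 dpp 2 were called (Spo11-202 and Hormad1-202), beside 6.25%. From 16 to 18 dpp 3 were called (Spo11-202, Spo11-204 and, lower, Trip13-201), beside 18.7%. Mei1, Mei4, Rec114, Ccdc36 and Trip13 each had a single transcript with all of the gene's TPM.

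The order of the levels changed between 8 and 18 dpp. At 8 dpp it was Hormad1, Trip13, Rec114, Ccdc36, Mei1, Hormad2, Spo11 and Mei4, and the ranges over mice of Ccdc36 and Mei1, Mei1 and Hormad2, and Spo11 and Mei4 overlapped. At 12 dpp the ranges of each neighbouring pair from Hormad2 over Rec114, Ccdc36 and Mei1 to Spo11 overlapped (means of 20.6 to 12.5 TPM), with Hormad1 and Trip13 above and Mei4 below them. At 18 dpp it was Hormad1, Spo11, Hormad2, Trip13, Ccdc36, Rec114, Mei1 and Mei4, with the first 3 apart from their neighbours and overlaps between Trip13 and Ccdc36, Ccdc36 and Rec114, and Rec114 and Mei1. With coding transcripts only, Trip13 (26.3 TPM) came before Hormad2 (25.1 TPM) at 18 dpp, and Mei4 (3.25 TPM) before Spo11 (3.14 TPM) at 8 dpp. Among the 22219 Ensembl genes above 0 at 18 dpp, Hormad1 stood higher than 98.1%, Spo11 than 81.8% and Mei4 than 38.5%. At 8 dpp Spo11 stood higher than 44.1% of 20439.

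Mice of the same age also varied together for some members. After each age's mean was taken out, Hormad1 and Hormad2 had r = 0.80 over the 28 mice, Spo11 and Ccdc36 r = 0.605, Rec114 and Trip13 r = 0.56, and Spo11 and Hormad1 r = 0.51, while Spo11 and Trip13 had r = -0.20. Mei1 had r = 0.58 with Hormad1, 0.54 with Hormad2, 0.53 with Ccdc36 and 0.51 with Spo11. With Rec114, Trip13 and Mei4 it had r = 0.351, 0.206 and 0.178. These are descriptions over mice that share their library for both genes. At 16 dpp mouse 1 was highest for Spo11 (34.7 TPM), Hormad1 (323 TPM) and Mei4 (4.44 TPM), and at 18 dpp mouse 4 was lowest for Spo11 (39.4 TPM) and Ccdc36 (16.4 TPM) and highest for Rec114 (19.0 TPM).

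Over all 28 mice, with the 6 ages pooled, the genes whose log2(TPM + 1) was most like that of Spo11 were Sox30 (r = 0.993), a transcription factor gene of spermatocytes and spermatids, and Dpep3 (r = 0.989). For Hormad1 they were Sycp3 (r = 0.996) and Sycp1 (r = 0.993), which encode parts of the synaptonemal complex. For Hormad2 they were Tex101 (r = 0.973), a germ cell surface protein gene, and Mov10l1 (r = 0.969), a helicase gene of the piRNA pathway. For Trip13 they were Mcam (r = 0.903) and Kit (r = 0.897), the receptor gene of differentiating spermatogonia, and for Rec114 Gars (r = 0.873), a tRNA synthetase gene, and Ccna2 (r = 0.862), which encodes cyclin A2. Lower values were reached for Ccdc36, with Dhx40 (r = 0.886) and Pi4ka (r = 0.851), for Mei1, with Zcwpw1 (r = 0.843), a reader of the marks that PRDM9 lays at hotspots, and Pcx (r = 0.802), and for Mei4, with Farp2 (r = 0.745) and Stxbp4 (r = 0.731). Points of one age share that age, so these values largely follow the age course.

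In adult samples enriched for pachytene and diplotene spermatocytes the members separated further. These samples were in a table of their own, so values are set beside those of 18 dpp without a test. Spo11 had 135, 138, 141 and 142 TPM, a mean 2.705 times that of 18 dpp, and Ccdc36 28.5, 29.4, 30.8 and 31.0 TPM, 1.38 times. These 2 genes were above the range of every juvenile age. Hormad1 had 169, 182, 194 and 212 TPM, 0.65 times its 18 dpp mean, and Hormad2 8.01, 11.4, 13.3 and 13.7 TPM, 0.335 times. Trip13 had 5.82, 6.09, 6.84 and 7.20 TPM (0.247 times), Mei1 3.10, 3.42, 3.57 and 4.70 TPM (0.284 times) and Rec114 1.57, 2.13, 2.82 and 3.06 TPM (0.165 times). Mei4 was listed at 0 in 2 samples and had 0.06 and 0.08 TPM in the others. Thus Mei1, Mei4, Rec114 and Trip13 lay below the range of every juvenile age, and no 2 genes of the set overlapped in adult samples. The share of all genes that lay outside the juvenile ranges was not computed. Whether this separation is particular to the members is therefore not known. Nptn, which overlaps Rec114, was at 9.29 TPM. Spo11 transcripts were not analysed here in adult samples, whose table is by gene. The spermatogonium markers, at 29.3 to 35.4 TPM in sum, were low there and the spermatid markers were high (872 to 1189 TPM), and their part in these levels was not tested.

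**Figure D5:**
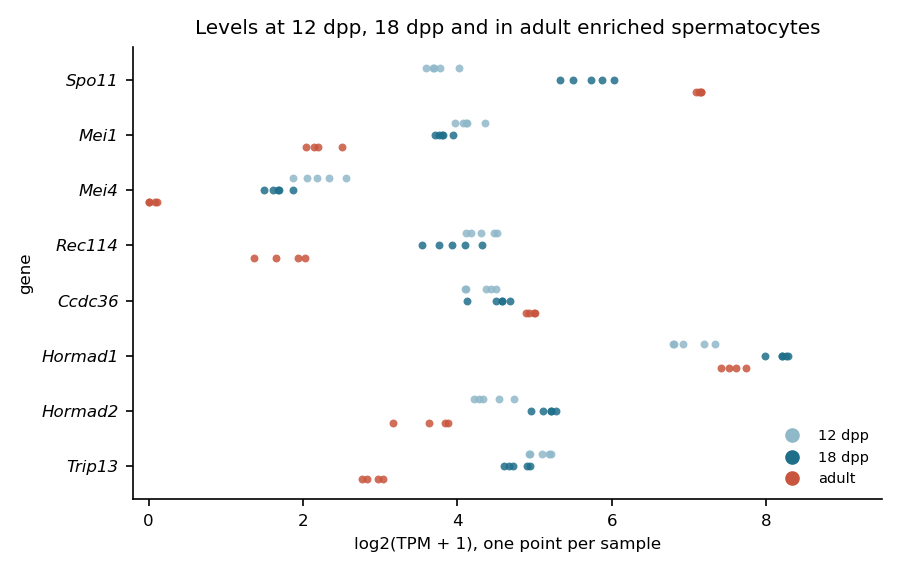
log2(TPM + 1) of the 8 measured genes (rows) in every mouse at 12 dpp (light blue) and 18 dpp (dark blue) and in the 4 adult samples (red), 1 point per sample. Spo11 and Ccdc36 are furthest right in adult samples (means of 139 and 29.9 TPM), Hormad1 lies between 12 and 18 dpp (189 TPM), and the other 5 are furthest left there.

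Genes that act with the break machinery were followed from 10 to 12 dpp and from 14 to 18 dpp, steps at which limma called 21.4% and 68.4% of all genes in either direction. The median of all genes from 14 to 18 dpp was -0.21. Among the members, limma called Spo11 (1.62), Hormad1 (0.87) and Hormad2 (0.36) higher from 14 to 18 dpp. Mei1 (-0.29), Mei4 (-0.41), Rec114 (-0.51) and Trip13 (-0.49) were called lower, and Ccdc36 (0.15) was not called. These member changes were not computed under the other scalings. For the steps within this interval, median-of-ratios factors gave Mei1 changes of 0.048 from 14 to 16 dpp and -0.12 from 16 to 18 dpp. With those factors limma called Mei1, Mei4, Rec114 and Trip13 at neither step. With quantile normalization limma called Mei1, Rec114 and Trip13 lower from 16 to 18 dpp. Among partners at hotspots and in the cutting enzyme, 3 of 6 tested genes rose from 10 to 12 dpp and 1 fell, with a list median of 0.18 beside 0.01 over all genes. Top6bl, which encodes TOPOVIBL, rose most (0.72 ± 0.13) and Ewsr1, an RNA-binding protein gene, fell (0.23 ± 0.07). From 14 to 18 dpp none rose and 3 fell, the largest fall being that of the chromatin remodeller Hells (0.60 ± 0.09). With median-of-ratios factors 2 rose and 1 fell at that step, and with quantile normalization none rose and 4 fell.

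Of 13 genes of break response and resection, 3 rose from 10 to 12 dpp and none fell, most of all Mdc1 (0.68 ± 0.13), which binds phosphorylated H2AX. From 14 to 18 dpp 3 rose, again with Mdc1 first (1.04 ± 0.13), and 5 fell, most of all Atm (0.72 ± 0.10), the kinase that limits SPO11 activity, and 7 rose and 3 fell with median-of-ratios factors. Of 11 strand exchange genes, 8 rose from 10 to 12 dpp and none fell, with a median of 0.50, led by Meiob (2.32 ± 0.13), a single-strand binding protein gene. From 14 to 18 dpp 6 rose, led by the DMC1 cofactor Psmc3ip (1.70 ± 0.14), and 1 fell, Sfr1 (0.27 ± 0.05). Of 12 axis, cohesin and synaptonemal complex genes, 9 rose from 10 to 12 dpp and none fell, with a median of 0.50, led by Sycp2 (1.18 ± 0.13). From 14 to 18 dpp 8 rose, led by Syce1 (1.91 ± 0.17), and 2 fell, most of all the cohesin gene Smc3 (0.55 ± 0.08).

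Of 5 genes of meiotic entry 3 rose from 10 to 12 dpp, most of all Meioc (0.57 ± 0.11), and from 14 to 18 dpp 2 rose, again with Meioc first (0.85 ± 0.11), and 2 fell, most of all Stra8 (0.77 ± 0.10), the inducer of meiosis. Of 6 genes of the pachytene program 3 rose from 10 to 12 dpp, led by the lactate dehydrogenase gene Ldhc (2.88 ± 0.34), and all 6 rose from 14 to 18 dpp, led by the glycolytic gene Pgk2 (5.73 ± 0.35), with a median of 3.76. For the genes named from these lists, the values are log2 changes with SE over 5 mice at each age, called by limma at an adjusted p under 0.05. From 14 to 18 dpp the strand exchange list had 7 genes higher and none lower with median-of-ratios factors and 6 and 2 with quantile normalization, the axis list 8 and 2 and 8 and 3, and the entry list 2 and 1 and 2 and 3. The genes named from these lists kept their direction and call under both scalings, apart from Sfr1, whose fall was not called with median-of-ratios factors (-0.04, adjusted p = 0.53, limma).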

How the data were processed

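Poly-A RNA of germ cell suspensions from 28 juvenile mice and of 4 adult samples was sequenced by the authors, aligned to an mm10 transcriptome with Bowtie 1.0.0 and quantified as TPM with RSEM 1.2.8, per the labels. The deposited transcript and adult gene tables hold TPM. The deposited juvenile gene table is on another scale, exp(log2(TPM + 1)) - 1, and was converted back to TPM, which put 20288 of its 20368 genes within 0.2 TPM of the summed transcripts. Every gene in it reached 3 TPM in at least 1 mouse. The authors deposited no counts, so depth is unknown.

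limma 3.58.1 in R 4.3.3 was fitted to log2(TPM + 1) over all genes with the 6 ages in 1 model, a pseudocount of 1 and a prior variance that followed the mean level. Calls were made at a Benjamini-Hochberg adjusted p of 0.05. The same was done for transcripts reaching 1 TPM and for their percentage of the gene. The Spo11 share was compared by exact permutation (scipy 1.17.1). The scripts were tested on simulated data for the step from 10 to 12 dpp, in which 200 of 20368 genes were changed. In the data limma called 4362 genes at this step, so the following rates hold for the simulated setting only. Of simulated log2 changes of 1, 88% were called with the right sign, and of changes of 0.5, 53%. Unchanged genes made up 6.62% of the calls. A change of 0.5 or less can thus be missed. Juvenile replicates are separate mice. Adult samples, in a separate table, were not tested against juvenile ones. Other pseudocounts, filters, scalings, transcript sets, age subsets, a replicate block and leaving out mice were tried. Sequences and coordinates come from GENCODE M21 on GRCm38.

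The members were fixed by their symbols. The marker lists (germ cell, spermatogonium, spermatid, Sertoli, Leydig, peritubular, macrophage, red blood cell, endothelial) and pathway lists were chosen with earlier results of these data known. Named genes were the members, their transcripts reaching 1 TPM, for each member the 2 genes of highest r over 28 mice, and from each pathway list the genes with the largest called rise and fall from 10 to 12 and from 14 to 18 dpp.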

Additional observations from a re-analysis of the deposited data

Results flagged for a closer look

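Of 53 groups of member values tested with Dixon's ratio, 1 had a sample far from the others. For Hormad1 at 18 dpp, mouse 1 had 252.62 TPM and the other mice lay between 293.39 and 309.1 TPM. Chance alone sets apart a sample in about 5% of such groups.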

How the results depend on the processing

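No member's change that was called turned its sign under an alternative, but changes that were not called did. Leaving out 1 mouse kept the direction and the side of the threshold of 1280 changes, 44 lost and 8 gained a call, and 12 that were called in neither fit turned their sign. They were those of Mei1 (-0.0875 to 0.0324 over all mice left out) and Ccdc36 (-0.0138 to 0.0848) from 12 to 14 dpp, Mei1 from 14 to 16 dpp (-0.062 to 0.0475) and Hormad2 from 16 to 18 dpp (-0.023 to 0.1053). Under the other alternatives 533 kept both, 20 lost and 9 gained a call, and 14 turned their sign, again called in neither fit. In mice 1 to 3 only, these were Rec114 from 10 to 12 dpp (0.0062), Mei4 (0.018), Rec114 (-0.062) and Ccdc36 (-0.0031) from 12 to 14 dpp, Mei1 (0.25), Rec114 (0.075) and Ccdc36 (0.10) from 14 to 16 dpp and Hormad2 from 16 to 18 dpp (-0.13). With a replicate block they were Ccdc36 from 12 to 14 dpp (-0.10) and Mei1 (0.16) and Ccdc36 (0.058) from 14 to 16 dpp. Mei1 turned from 14 to 16 dpp with median-of-ratios factors (0.048), Ccdc36 from 12 to 14 dpp with quantile normalization (-0.0036) and Hormad2 from 16 to 18 dpp in its protein-coding transcripts (-0.15). The number of members called from 14 to 16 dpp was 1 without a filter on low values and 1 with the compared ages only, and 1 to 3 when 1 mouse was left out. From 16 to 18 dpp it was 3 with median-of-ratios factors and 2 to 5 when 1 mouse was left out. The Spo11 share differed between 12 and 18 dpp by 27.2 points in mice 1 to 3 only (exact p = 0.1, the smallest possible) and by 30.9 to 41.5 points without 1 mouse. Between 12 and 16 dpp it differed by 16.2 points as a percentage of all transcripts, by 11.01 points in mice 1 to 3 only (exact p = 0.4) and by 16.5 to 27.1 points without 1 mouse. With quantile normalization Mei1 (-0.34) and Mei4 (-0.703) were called lower from 8 to 18 dpp. Deviations of same-numbered mice of neighbouring ages correlated at -0.248 to 0.253 in 19 pairs, 2 of them over 0.1, so the numbers were not taken to pair mice. With a replicate block, Hormad2 was called higher from 14 to 16 dpp (0.47, adjusted p = 0.031), Hormad1 lost its call from 16 to 18 dpp (0.36, adjusted p = 0.058) and Mei4 was called lower from 8 to 18 dpp (-0.45, adjusted p = 0.044, limma for all). The causes of these differences were not tested.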
